A study of Mus musculus with 3 samples.

Results

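The Toll-like receptors and LPS co-receptors described here are 10 genes taken by name from the gene lists of the deposited matrices: the receptors Tlr1, Tlr2, Tlr3, Tlr4, Tlr7, Tlr9 and Tlr13, the co-receptors Cd14 and Ly96, and the adaptor Myd88. All 10 were listed in each library, out of 24357 gene symbols over the series. Single-cell RNA sequencing was done on inflamed knee synovium, the tissue that lines the joint cavity, of arthritic C57BL/6 mice, female and wild type, in the model called collagen- and antibody-induced arthritis (C&AIA). The mice were 8 weeks old, received 100 µg of type II collagen on day 0, 1 mg of antibodies against that collagen on day 21 and lipopolysaccharide (LPS) on day 22, and were sampled in the effector phase of disease. There were 3 libraries (replicates 1, 2 and 3), each made from tissue of 2 pooled mice and all of the same group. Every mouse had been given LPS, which is the ligand of the receptor that Tlr4 encodes, so levels without LPS or without arthritis were not measured here, and the comparisons are between cell classes within the libraries.

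Toll-like receptors detect molecules of microbes and of damaged tissue. Some of them sit at the cell surface and read lipids and lipoproteins, and others sit in endosomes and read nucleic acids. LPS is handed from LPS-binding protein to CD14, then to MD-2 (the product of Ly96), which holds it in the pocket that brings TLR4 molecules together. All of these receptors except TLR3 signal through the adaptor MyD88, which leads to NF-kB and to inflammatory cytokines, and TLR3 uses the adaptor TRIF instead. In the arthritic joint such receptors are studied because fragments of matrix, S100 proteins and heat shock proteins have been proposed as their ligands, alongside bacterial products.

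The libraries held 11939, 11602 and 15263 cell barcodes with 101384374, 99782608 and 116125707 UMIs (unique molecular identifiers, each standing for 1 captured RNA molecule), and no barcode had fewer than 1000 UMIs. The submitters state 11111, 10668 and 14363 cells after filtering, by steps the labels do not give, and 11430, 11104 and 14341 cells were used here. Cells were clustered without the 10 members and without the other genes of the pathway, and each cluster was named from marker genes, so a name ending in "-like" stands for a cluster that carried those markers. The largest classes were neutrophil-like (11775 cells), monocyte/macrophage-like (11572) and fibroblast-like (7125), and 22 classes that do not contain one another had at least 20 cells in every library. Lining and sublining fibroblast-like, endothelial-like, pericyte/smooth muscle-like and adipocyte-like cells were present, which are cells of synovium, and so were osteoclast-like and erythroid-like cells and a few progenitor-like cells. Cells carry serial names and no barcode sequence, and 4875, 4611 and 4775 of the names also occur in another library, so shared barcodes could not be counted. Levels are given as counts per 1000000, that is UMIs of a gene for every 1000000 UMIs of the class (CPM), in the order of replicates 1, 2 and 3. Beside a level stands, where it matters, the free RNA limit: the level that RNA released from broken cells could bring at most, estimated from neutrophil genes S100a8 and S100a9 in other cells and from collagen genes in neutrophils. UMI counts per gene depend on how each transcript is captured, so levels are compared between cells and not between genes.

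RefSeq promoter entries of the mouse build GRCm38.p6 matched 6 of the 10 members (Tlr1, with 2 entries, Tlr2, Tlr3, Tlr9, Tlr13 and Myd88). The 250 bases before the start of Tlr2, Tlr13 and Myd88, which were all higher in neutrophil-like than in monocyte/macrophage-like cells, and of Tlr3, which was lower there, read as follows, 5′ to 3′ on the gene's strand. Capitals mark 3 motifs, searched on both strands with no overlap between matches: the interferon response motif (GAAA, any 2 bases, GAAA), the kappaB motif (GGGA, any 4 bases, CC) and the ETS motif (GAGGAAG).
Tlr2, chr3:83841609-83841858, minus strand: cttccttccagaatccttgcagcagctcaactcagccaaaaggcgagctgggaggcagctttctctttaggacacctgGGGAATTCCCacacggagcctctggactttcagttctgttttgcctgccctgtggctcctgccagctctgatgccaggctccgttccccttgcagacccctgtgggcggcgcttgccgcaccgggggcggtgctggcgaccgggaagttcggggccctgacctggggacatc
Tlr13, chrX:106143025-106143274, plus strand: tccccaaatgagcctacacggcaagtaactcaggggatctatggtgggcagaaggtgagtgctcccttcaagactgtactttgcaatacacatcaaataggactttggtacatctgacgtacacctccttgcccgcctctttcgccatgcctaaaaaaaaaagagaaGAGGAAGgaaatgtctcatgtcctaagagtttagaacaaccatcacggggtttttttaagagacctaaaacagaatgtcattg
Myd88, chr9:119340019-119340268, minus strand: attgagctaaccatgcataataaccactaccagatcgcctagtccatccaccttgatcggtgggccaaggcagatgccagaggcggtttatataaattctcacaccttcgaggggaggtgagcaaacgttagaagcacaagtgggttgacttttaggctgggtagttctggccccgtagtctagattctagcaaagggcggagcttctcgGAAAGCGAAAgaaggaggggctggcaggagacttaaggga
Tlr3, chr8:45410381-45410630, minus strand: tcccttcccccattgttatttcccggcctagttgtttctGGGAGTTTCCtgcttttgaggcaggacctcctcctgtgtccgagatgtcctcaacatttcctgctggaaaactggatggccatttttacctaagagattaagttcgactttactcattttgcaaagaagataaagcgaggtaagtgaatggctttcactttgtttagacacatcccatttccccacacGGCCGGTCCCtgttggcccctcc
The Tlr2 window held 1 kappaB match and the Tlr3 window 2, where 17.6% of all 32851 promoter windows of that length held at least 1. The Tlr13 window held 1 ETS match, as did those of Tlr9 and of 1 of the Tlr1 entries (10.6% of all windows). Myd88 alone of the 6 held an interferon response match (2.98% of all windows), at position -40 from the start of the gene. These matches describe letters only, and binding was not measured. In the GRCm38 annotation an antisense gene overlaps Tlr3 and other genes lie close to Myd88, and whether reads were counted by strand is not given in the sources used here, so part of the UMIs of these members could belong to those neighbours.

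Over all cells, the members ranged from common to barely detected. Cd14 gave 26434, 25212 and 36438 UMIs in the 3 libraries, in 7253, 6907 and 9398 cells. Tlr2 gave 10385, 8337 and 12777 UMIs, and Myd88, Tlr4 and Tlr13 gave between 2965 and 4657 UMIs each. Ly96 gave between 1502 and 2058, Tlr1 between 810 and 1009, Tlr7 between 466 and 628 and Tlr3 between 481 and 560. Tlr9 gave only 73, 80 and 39 UMIs, so most of its differences between classes were not detectable at this depth. By mean level, the highest class was a neutrophil class for 5 members (Tlr2, Tlr4, Tlr13, Cd14 and Myd88), a monocyte/macrophage class for 4 (Tlr1, Tlr7, Tlr9 and Ly96) and the endothelial-like class for Tlr3.

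Each state of neutrophils or macrophages was named from the level of its markers relative to the other clusters of that class, and 2 such states were mixed in their leading genes. The interferon-high neutrophil-like state (named from genes such as Rsad2 and Isg15) held 1589 cells in 4 clusters, of which 2, with 809 cells, had none of its markers among their 10 leading genes and were led by genes such as Irg1, Hdc and, in 1 of them, Cxcl10 and Ccl4. The markers summed to 1933 ± 494 CPM in those 2 clusters, 3965 ± 550 CPM in the other 2 and 513 ± 153.5 CPM in the unassigned neutrophil-like cells (SD, n = 3 libraries). The Spp1 Arg1 macrophage-like state held 4176 cells in 6 clusters, and 2 of these (1033 and 525 cells) had neither Spp1 nor Arg1 among their 10 leading genes and were led by Pf4, Apoe and complement C1q genes, with the resident marker Folr2 in the larger one.

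Among the surface receptors, Tlr2, the receptor for bacterial lipoproteins, was highest in interferon-high neutrophil-like cells. There it stood at 389, 369.9 and 431 CPM, above every library of the next class, the Ccl3 Ccl4 neutrophil-like cells (311, 328 and 365 CPM). In the 2 interferon-high clusters led by the state's markers it was lower, at 328, 362 and 368 CPM, and overlapped the Ccl3 Ccl4 cells, and in the other 2 it was 441, 378 and 471 CPM. The remaining mature neutrophil-like cells followed at 280.0, 272 and 315 CPM, and these 3 states lay above every library of the other 19 classes. Neighbouring monocyte/macrophage classes overlapped, from 182 ± 44.2 CPM (SD, n = 3 libraries) in the unassigned monocyte/macrophage-like cells to 109.5 ± 24.9 in resident macrophage-like cells. Immature neutrophil-like cells, at 126.5, 99.2 and 152 CPM, fell within that range. Outside the myeloid cells, lining fibroblast-like cells had the highest Tlr2 level, 77.4, 71.2 and 80.8 CPM, which was 4.68 times the free RNA limit and overlapped neither neighbour in the order. In T cell-like, pericyte/smooth muscle-like, osteoclast-like and adipocyte-like cells Tlr2 was close to that limit, at 1.11, 0.953, 0.965 and 0.977 times.

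Tlr1, whose product pairs with TLR2 to read triacylated lipopeptides, had another order. MHC class II macrophage-like cells led with 25.1, 28.2 and 23.7 CPM, and B cell-like cells overlapped them at 20.9, 28.2 and 26.3 CPM, although those rest on 3, 3 and 2 UMIs. T cell-like cells (8.33, 12.6 and 8.87 CPM) were the last of 11 classes that each overlapped the next, and lay above every library of the class that followed, immature neutrophil-like cells (5.99, 5.67 and 1.90 CPM). In fibroblast-like, endothelial-like and osteoclast-like classes Tlr1 stayed at 1.34 to 1.76 times the free RNA limit.

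Tlr4, the signalling receptor for LPS, was highest in interferon-high (149, 112 and 162 CPM) and Ccl3 Ccl4 neutrophil-like cells (151, 115 and 127 CPM), which overlapped, as they did with the 2 marker-led interferon-high clusters alone (142, 83.3 and 152 CPM). The other mature neutrophil-like cells followed at 90.5, 99.4 and 116 CPM, above every library of the next class. The order then ran through the Spp1 Arg1 (51.2 ± 5.71), resident (48.9 ± 12.0) and other monocyte/macrophage-like cells (45.7 ± 4.46 CPM; SD, n = 3) without gaps. Stromal cells held Tlr4 RNA as well: adipocyte-like cells had 27.2 ± 10.0, endothelial-like cells 24.3 ± 2.88 and lining fibroblast-like cells 21.8 ± 2.13 CPM, which is 3.97, 3.50 and 3.97 times their free RNA limits. Dendritic-cell-like cells were at the low end with 12.0, 8.12 and 13.6 CPM. The value of B cell-like cells came from 1 library (6.95, 0 and 92.1 CPM, from 1, 0 and 7 UMIs).

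**Figure D1:**
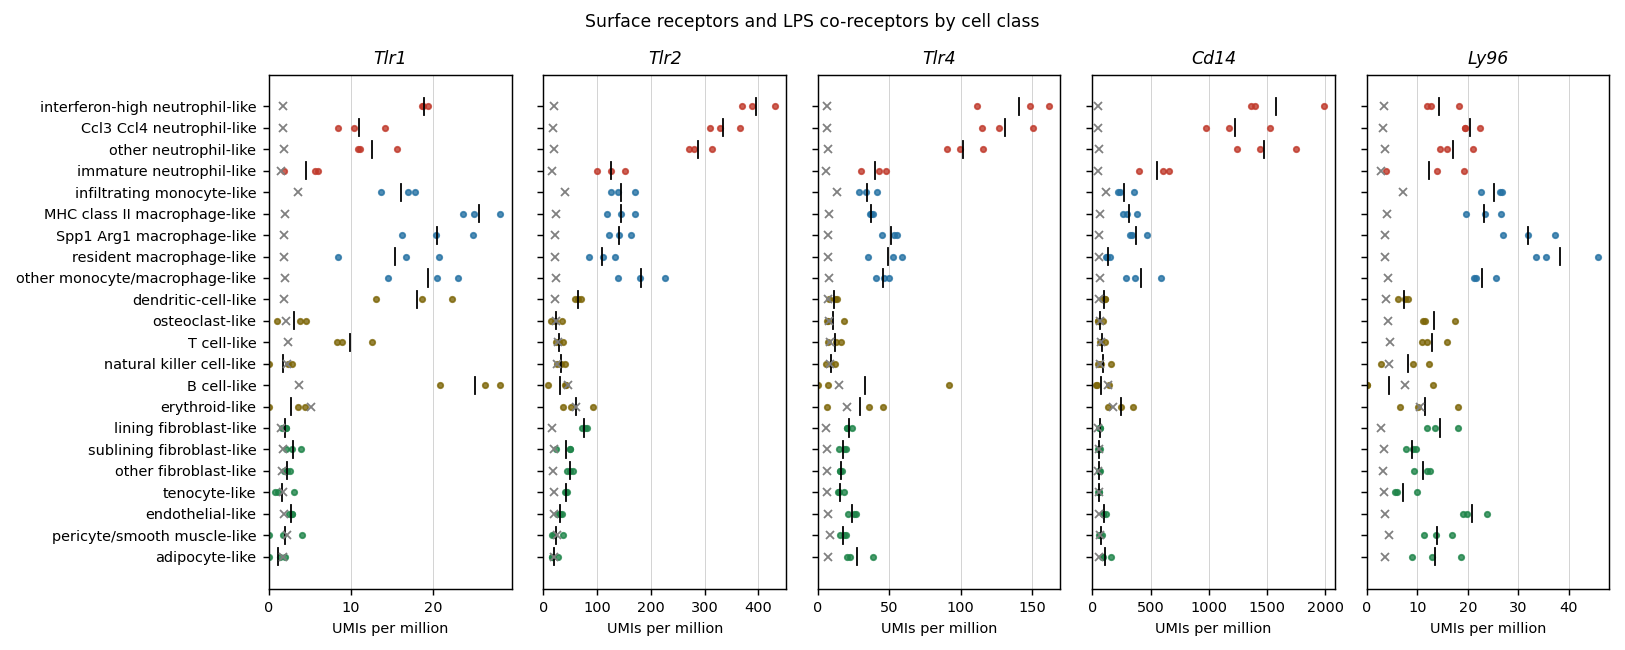
Level of Tlr1, Tlr2, Tlr4, Cd14 and Ly96 in CPM (horizontal axis, linear) in the 22 cell classes (vertical axis). Each point is 1 of the 3 libraries, the black bar is their mean and the grey cross the mean free RNA limit; red points are neutrophil classes, blue monocyte/macrophage classes, brown other blood-derived cells and green stromal cells. Tlr2, Tlr4 and Cd14 are farthest to the right in the 3 mature neutrophil classes, whereas Ly96 is farthest right in resident macrophage-like cells (33.5, 35.4 and 45.7 CPM).

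Cd14, the LPS-binding co-receptor anchored in the outer leaflet of the membrane, was highest in the mature neutrophil states. Interferon-high (1397, 1362 and 1985 CPM), other mature (1238, 1436 and 1748) and Ccl3 Ccl4 neutrophil-like cells (1174, 974 and 1522) overlapped, and all 3 lay above immature neutrophil-like cells at 605, 404.5 and 654.5 CPM. The 2 marker-led interferon-high clusters had 1162, 1006 and 1507 CPM of Cd14 and the other 2 had 1598, 1705 and 2295 CPM. Monocyte/macrophage classes reached from 416 ± 155.5 CPM in the unassigned cells to 132 ± 18.3 in resident macrophage-like cells, the lowest of them. In fibroblast-like classes the level was 55.7 to 64.4 CPM, which is 1.04 to 1.41 times the free RNA limit, so little or none of it stood above what free RNA could bring. Endothelial-like cells had 93.7, 94.0 and 122 CPM, or 1.79 times their limit. Erythroid-like and T cell-like cells stood at 1.41 and 1.14 times theirs.

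Ly96, which encodes MD-2, did not follow Tlr4 and Cd14. It was highest in resident macrophage-like cells (33.5, 35.4 and 45.7 CPM) and Spp1 Arg1 macrophage-like cells (37.2, 26.9 and 31.9 CPM), which overlapped, and both lay above every library of infiltrating monocyte-like cells (26.3, 26.8 and 22.6 CPM). The 4 Spp1 Arg1 clusters with Spp1 or Arg1 among their leading genes gave 37.3, 29.6 and 31.2 CPM, and the 2 without gave 37.0, 24.3 and 33.6 CPM, which overlaps the infiltrating cells. Endothelial-like cells, at 23.7, 19.8 and 19.0 CPM, overlapped the unassigned monocyte/macrophage-like cells and the Ccl3 Ccl4 neutrophil-like cells (19.5, 22.5 and 19.4 CPM). The remaining mature neutrophil states had 17.1 ± 3.42 (other) and 14.3 ± 3.44 CPM (interferon-high). Relative to each gene's own highest class, interferon-high neutrophil-like cells stood at 100% for Tlr4 and for Cd14 and at 37.3% for Ly96. Resident macrophage-like cells stood at 34.7% for Tlr4, 8.34% for Cd14 and 100% for Ly96. The mature neutrophil states overlapped for Tlr4 and Cd14, so 100% does not set the interferon-high state apart. Ccl3 Ccl4 neutrophil-like cells stood at 93.0% (Tlr4), 77.4% (Cd14) and 53.5% (Ly96), and other mature neutrophil-like cells at 72.2%, 93.2% and 44.8%. At a clustering resolution of 2.0 and with doublets kept, another neutrophil class was highest for both Tlr4 and Cd14. In dendritic-cell-like cells all 3 genes were low, at 7.98% (Tlr4), 6.30% (Cd14) and 19.1% (Ly96) of their highest class.

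**Figure D2:**
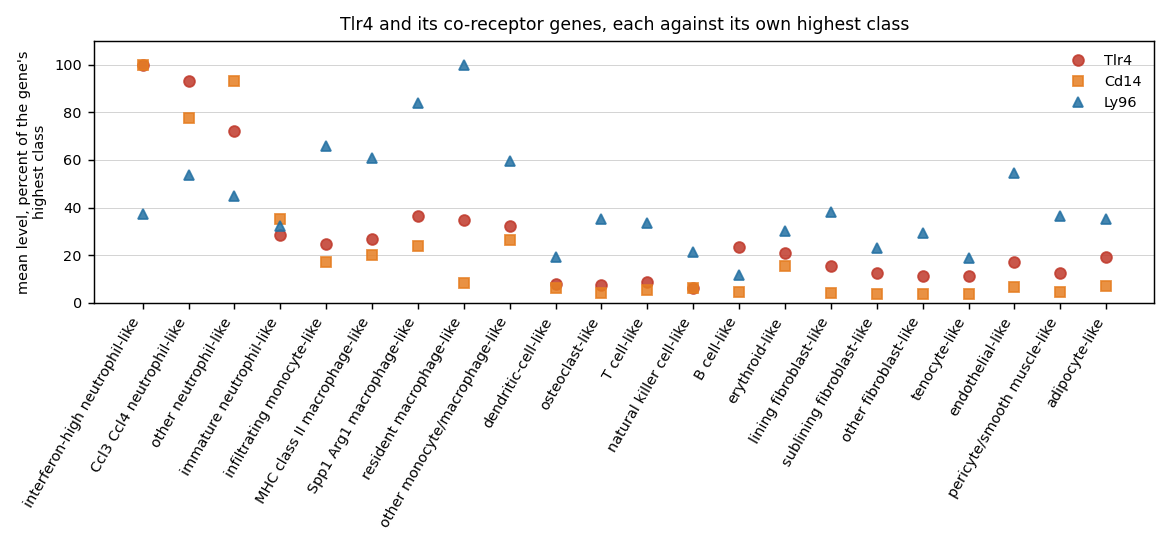
Mean level over 3 libraries of Tlr4, Cd14 and Ly96 (vertical axis, percent of the gene's own highest class, linear) in the 22 cell classes (horizontal axis). Red circles are Tlr4, orange squares Cd14 and blue triangles Ly96. In interferon-high neutrophil-like cells Ly96 stands at 37.3% while the other 2 stand at 100%, and in resident macrophage-like cells the order is turned round. Ccl3 Ccl4 neutrophil-like cells stand at 93.0% for Tlr4 and other mature neutrophil-like cells at 93.2% for Cd14.

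Among the endosomal receptors, Tlr3, which reads double-stranded RNA, was highest in endothelial-like cells, at 15.1, 13.8 and 14.7 CPM. Every library there lay above every library of the next class, resident macrophage-like cells (11.2, 8.55 and 6.78 CPM), and the level was 14.1 times the free RNA limit. Dendritic-cell-like (8.19 ± 1.43), pericyte/smooth muscle-like (7.49 ± 1.79) and fibroblast-like classes (3.51 to 5.01 CPM) followed with overlaps. In the 4 neutrophil classes Tlr3 was between 0.515 and 1.40 CPM, or 0.612 to 1.37 times the limit. No Tlr3 UMI was found in B cell-like cells, where 3 UMIs would have been 20.9, 28.2 and 39.5 CPM in the single libraries and 9.19 CPM over all 3, so a level like that of endothelial-like cells was not detectable in any 1 library but lies above the limit over the 3 together. With every cell thinned to 1000 UMIs the highest mean moved to resident macrophage-like cells, so the first place of endothelial-like cells holds for the unthinned level.

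Tlr7, which reads single-stranded RNA, was highest in resident macrophage-like cells (30.7, 42.8 and 33.9 CPM), above every library of the Spp1 Arg1 macrophage-like cells that followed (18.5, 16.0 and 15.3 CPM). The other monocyte/macrophage classes lay between 8.95 and 14.4 CPM on average. Neutrophil classes had 1.94 to 4.95 CPM, and dendritic-cell-like cells had 0, 1 and 0 UMIs. Plasmacytoid dendritic-cell-like cells, a type known for sensing nucleic acids through TLR7 and TLR9, were too few for the order (21, 43 and 15 cells). They gave 42.3, 84.7 and 63.4 CPM of Tlr7, from 7, 26 and 5 UMIs, and 0, 6.52 and 12.7 CPM of Tlr9, from 0, 2 and 1 UMIs.

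Tlr9, the receptor for unmethylated CpG DNA, had no class above 1.40 CPM among the 22. MHC class II macrophage-like cells came first at 1.22, 1.88 and 1.11 CPM, and no neighbours in the order were apart from each other. No UMI was found in B cell-like, natural killer cell-like and Ccl3 Ccl4 neutrophil-like cells, which at their depth does not show that the gene was off.

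Tlr13, a mouse receptor for bacterial ribosomal RNA, had its highest levels in neutrophils like Tlr2, Tlr4 and Cd14. Ccl3 Ccl4 (137, 125 and 155 CPM), interferon-high (148, 129 and 117) and other mature neutrophil-like cells (123, 132 and 131) overlapped and were all above resident macrophage-like cells (99.2, 83.1 and 76.2 CPM). Spp1 Arg1 macrophage-like (59.6 ± 4.11) and infiltrating monocyte-like cells (53.8 ± 4.52) were above MHC class II macrophage-like (43.2 ± 2.58) and the unassigned monocyte/macrophage-like cells (41.6 ± 0.845 CPM). Below dendritic-cell-like cells (27.2 ± 4.94 CPM), the stromal classes were at 0.929 to 1.10 times the free RNA limit, so Tlr13 RNA was not detectable there beyond it.

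Myd88 was found more evenly. Interferon-high neutrophil-like cells were highest with 96.1, 114 and 118 CPM, above every library of the infiltrating monocyte-like cells that came next (93.8, 79.4 and 81.7 CPM), but the 2 marker-led clusters alone (88.4, 112 and 104 CPM) overlapped those. Other mature neutrophil-like cells had 86.8, 87.6 and 80.3 CPM and dendritic-cell-like cells 87.4, 73.1 and 66.8 CPM. Resident macrophage-like cells, which were highest for Tlr7 and Ly96, had 30.7, 33.0 and 33.9 CPM of Myd88, below the other macrophage classes and within the stromal range (25.2 to 41.7 CPM on average). The Myd88 level was above the free RNA limit in all 3 libraries in 20 of the 22 classes, the most of any member, against 19 for Ly96 and 6 for Tlr9.

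**Figure D3:**
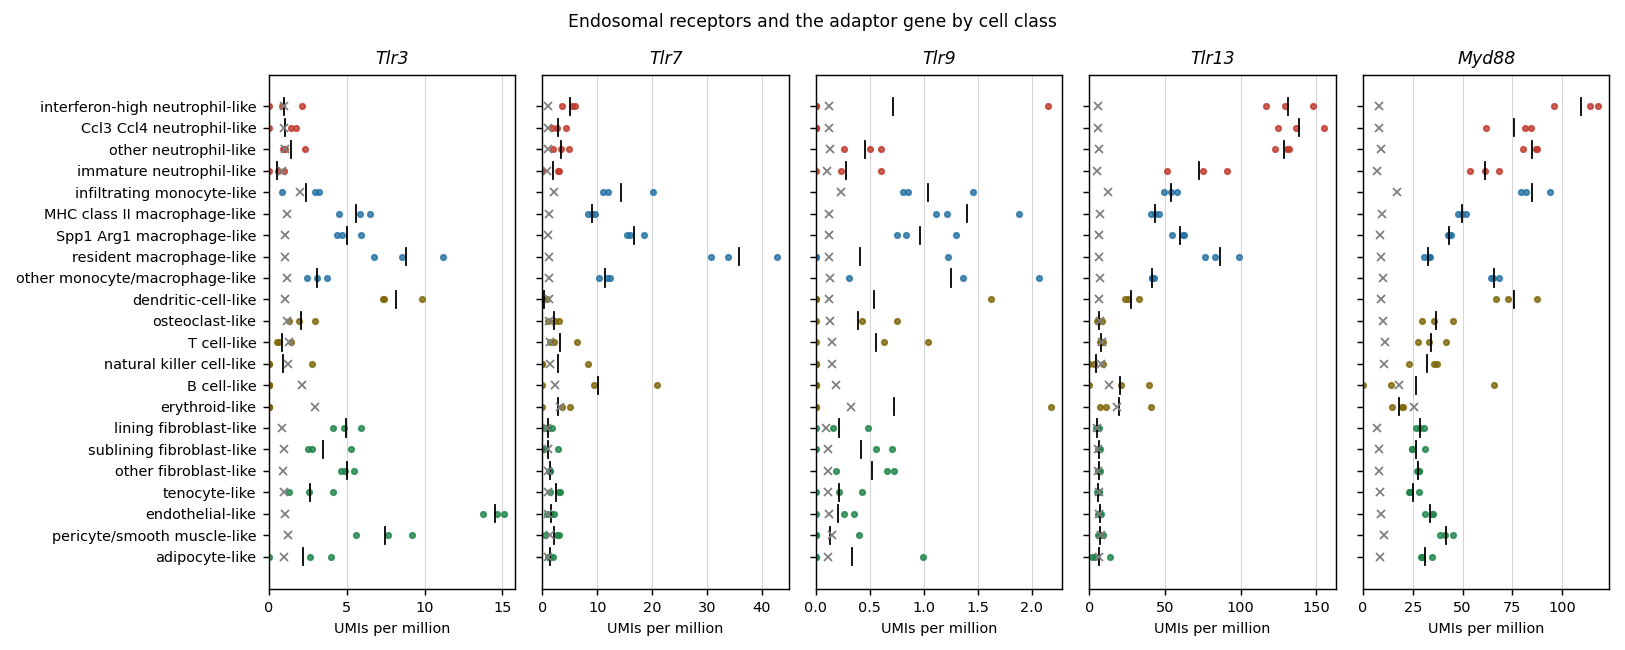
Level of Tlr3, Tlr7, Tlr9, Tlr13 and Myd88 in CPM (horizontal axis, linear, with its own range for each gene) in the 22 cell classes (vertical axis). Points are the 3 libraries, black bars their means and grey crosses the mean free RNA limit, coloured as for the surface receptors. Unthinned, endothelial-like cells stand apart for Tlr3 (13.8 to 15.1 CPM), resident macrophage-like cells for Tlr7 (30.7 to 42.8 CPM) and the 3 mature neutrophil classes for Tlr13.

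Across the 22 classes, which share libraries and differ in depth, log2 mean levels (with 1 CPM added) of Tlr2, Tlr4, Tlr13 and Cd14 correlated with one another at Pearson's r between 0.845 and 0.892. Ly96 correlated with Tlr4 at 0.490 and with Cd14 at 0.448, and Tlr3 correlated with Cd14 at -0.306 and with Tlr4 at -0.199. These are descriptions over 22 classes. Of 10154 other genes with at least 20 CPM in a class, those most like Tlr2 were Emilin2 (r = 0.957), Card19 (0.919) and Rab32 (0.909). Those most like Tlr4 were Adgb (0.926), C5ar1 (0.919) and Clec4d (0.909), and those most like Cd14 were Clec4e (0.975), Dmxl2 (0.970) and Gm5150 (0.960). Tlr13 was closest to Lpcat2 (0.981), Cd300ld (0.975) and Fcgr4 (0.964), and Tlr1 to Cd86 (0.925), March1 (0.918) and Irf5 (0.907). Tlr7 was closest to Adgre1 (0.864), Cacna1d (0.850) and Kcnk13 (0.836), and Ly96 to Mfsd1 (0.870), Amdhd2 (0.865) and Mpp1 (0.843). Myd88 was closest to Nod2 (0.911), Atg3 (0.910) and 1600014C10Rik (0.895), and Tlr3 to Ipo13 (0.871), Ctnna1 (0.865) and Itm2c (0.858). For Tlr9 the nearest genes were Nrg1 (0.822), Ms4a8a (0.818) and Tgfbi (0.792), which rests on its few UMIs.

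The classes were then compared by edgeR's quasi-likelihood test on UMIs summed per library and class, with the library as a block. A gene was called when its Benjamini-Hochberg adjusted p over all genes tested was under 0.05 and its log2 fold change at least 1 in size. The fitted folds use trimmed-mean scaling, which sets the bulk of genes to no change, so a fold can differ from the ratio of the CPM values. From each list of the surrounding pathway, the gene named as leading is the called gene with the largest fold in that direction among those with at least 10 CPM. No list was tested as a set. The number of genes called in a list is to be read against the share of all genes called in that comparison, which is given with the members. All p-values rest on how much the difference between 2 classes varied over 3 libraries, each of 2 pooled mice, with that spread estimated partly from all genes tested.

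Neutrophil-like cells had more Cd14, Tlr13, Tlr4, Tlr2 and Myd88 RNA than monocyte/macrophage-like cells, and less Tlr7, Tlr3 and Tlr9. Of the 10 members, 5 were called higher and 3 lower, where 21.3% of the 14108 genes tested were called higher and 23.3% lower, so the number lower is near the background. The median log2 fold change was 0.32 over the members tested and -0.02 over all genes tested. Cd14 stood at 1142, 1055 and 1703 CPM against 321, 278 and 465 (log2 fold change 2.25 ± 0.09 SE, adjusted p = 9.99e-12). Tlr13 had 119, 104 and 126 CPM against 51.6, 51.4 and 49.7 (1.56 ± 0.08, adjusted p = 2.94e-10), and Tlr4 had 94.2, 77.9 and 123 against 46.9, 38.8 and 48.8 (1.49 ± 0.09, adjusted p = 9.26e-10). For these 3 genes, and for Tlr2 (1.25 ± 0.08, adjusted p = 3.77e-09), every neutrophil-like library lay above every monocyte/macrophage-like one, as was so for 25.1% of the genes tested. Myd88 was also higher, at 1.01 ± 0.08 (adjusted p = 4.50e-08), just past the threshold, with 82.1, 80.4 and 87.4 CPM against 54.8, 55.9 and 50.6. It fell short of that threshold without replicate 2 (0.96) or without replicate 3 (0.92).

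In the other direction, Tlr7 had 3.55, 2.64 and 3.88 CPM in neutrophil-like cells against 13.9, 13.7 and 13.4 CPM (-1.68 ± 0.15, adjusted p = 1.24e-07). Tlr3 was also lower (-1.65 ± 0.26, adjusted p = 3.63e-05), and so was Tlr9 (-1.15 ± 0.40, adjusted p = 0.0176), from at most 1.48 CPM, a call that ended under 7 alternatives (-0.71 to -1.32), among them DESeq2 (-1.20), leaving out replicate 1 (-1.13) and dropping the library block (-1.05). Tlr1 (-0.44 ± 0.15, adjusted p = 0.0123) and Ly96 (-0.36 ± 0.10, adjusted p = 0.00505) were lower by less than the fold set for a call. For both, every neutrophil-like library lay below every monocyte/macrophage-like one, as it did for 49.8% of the genes tested. With every cell thinned to 1000 UMIs, Tlr1 was at 0.07 ± 0.19 (adjusted p = 0.737) and Ly96 at -0.20 ± 0.15 (adjusted p = 0.212). The other members kept their calls after thinning, except Tlr9, which had too few UMIs to be tested. With library totals in place of the trimmed mean, which moved the median of all genes from -0.02 to -0.40 and the calls from 2998 higher and 3282 lower to 2051 and 4652, Tlr2 (0.87) and Myd88 (0.63) were not called, and no member changed sign. Neutrophil-like cells had a median of 1833 UMIs against 6283.5, all 8 monocyte/macrophage markers were detected in them at 427 to 736 CPM in sum, and all 8 neutrophil markers in monocyte/macrophage-like cells at 3038 to 5597 CPM; the part of these in the results was not tested.

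Some of the genes around the receptors were called as well, where 21.3% of all genes tested were called higher and 23.3% lower. Tlr6, the other partner of TLR2, was higher in neutrophil-like cells at 2.18 ± 0.10 (adjusted p = 6.17e-11), with 48.4, 37.0 and 48.9 CPM against 12.4, 13.4 and 12.4. Of 3 other Toll-like receptor genes tested it was the 1 called higher, and 1 was called lower. Of 9 chaperone and endosomal protease genes, 5 were lower, led by the endosomal protease gene Lgmn (-2.85 ± 0.09), and none higher. Of 8 LPS transfer and related receptor genes, 1 was higher (the integrin gene Itgam, 1.37 ± 0.09) and 4 were lower, led by Ly86 (-3.81 ± 0.13), whose product is related to MD-2 and partners CD180. Of 20 adaptor and kinase genes, 3 were higher, led by the kinase gene Irak2 (2.80 ± 0.09), and 1 was lower, Ticam2 (-2.19 ± 0.19), which encodes the adaptor that links TLR4 to TRIF. Of 12 inhibitor genes 7 were higher, led by Pdlim2 (2.46 ± 0.09), and none lower. The LPS response list had 9 of 16 genes higher, led by the itaconate enzyme gene Irg1 (4.02 ± 0.13), and 2 lower, led by Cd40 (-3.17 ± 0.14). Of 12 proposed endogenous ligands 2 were higher, led by S100a9 (5.57 ± 0.13), which also marks neutrophils here, and 3 lower, led by Vcan (-1.74 ± 0.09).

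Fibroblast-like cells had less of nearly all members than monocyte/macrophage-like cells. Of 10 members, 8 were called lower and none higher, where 19.9% of 15407 genes were called lower and 23.5% higher, and the members' median was -1.36 against 0.03 over all genes. The largest differences were in Tlr7 (1.43, 1.28 and 1.02 CPM against 13.9, 13.7 and 13.4; -3.38 ± 0.13, adjusted p = 7.39e-10), Tlr1 (-3.14 ± 0.13) and Tlr13 (-2.99 ± 0.08). Tlr2 (-1.41 ± 0.07), Tlr4 (-1.30 ± 0.08), Tlr9 (-1.31 ± 0.28) and Ly96 (-1.15 ± 0.08) differed less, and Cd14 was at -2.41 ± 0.10. Myd88 was lower without reaching the fold set for a call (-0.86 ± 0.07, adjusted p = 6.84e-07). Tlr3 was the member on which the 2 classes overlapped: 4.79, 5.20 and 4.69 CPM in fibroblast-like and 5.12, 3.93 and 4.46 in monocyte/macrophage-like cells (0.20 ± 0.14, adjusted p = 0.205). A lack of overlap was common: every fibroblast-like library lay below every monocyte/macrophage-like one for 39.9% of the genes tested and above for 36.8%. With free RNA subtracted, Cd14 was at -5.22 and no longer called, and Myd88 (-1.04) was called. Fibroblast-like cells showed all 8 monocyte/macrophage markers (340 to 518 CPM in sum, against 2113 to 4947 CPM for the 8 neutrophil markers), and monocyte/macrophage-like cells all 7 fibroblast markers at 3626 to 4362 CPM.

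Around them, all 4 other Toll-like receptor genes tested were lower in fibroblast-like cells, among them Tlr6 (-1.99 ± 0.10). Of the LPS transfer and related genes 6 of 8 were lower, led by Ly86 (-4.38 ± 0.09), and 1 was higher: Lbp, for LPS-binding protein, at 173, 172 and 176 CPM against 13.3, 18.4 and 16.0 (3.55 ± 0.09, adjusted p = 3.76e-11). Chaperone and protease genes had 5 of 9 lower, led by Ctss (-4.16 ± 0.10), and 1 higher, Cnpy4 (1.55 ± 0.08). Adaptors and kinases had 10 of 20 lower, led by Ticam2 (-3.55 ± 0.16), and none higher. Inhibitors had 3 of 13 higher, led by Il1rl1 (3.52 ± 0.12), the IL-33 receptor gene, and 4 lower, led by Tnfaip3 (-2.27 ± 0.08). Proposed ligands had 8 of 12 higher, led by the matrix proteoglycan gene Dcn (4.35 ± 0.12), and none lower. Of the LPS response genes 3 of 16 were higher, led by Il6 (3.13 ± 0.13), and 8 lower, led by Cd40 (-3.93 ± 0.11).

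Dendritic-cell-like cells had less Tlr4, Ly96, Cd14, Tlr2, Tlr13 and Tlr7 RNA than monocyte/macrophage-like cells. Against monocyte/macrophage-like cells, 6 members were called lower and none higher, where 6.41% of 13069 genes were called lower and 5.53% higher, with medians of -1.15 (members) and -0.04 (all genes). Tlr4 had 12.0, 8.12 and 13.6 CPM against 46.9, 38.8 and 48.8 (-2.12 ± 0.22, adjusted p = 3.19e-10), Ly96 had 7.65, 8.12 and 6.19 against 29.1, 26.0 and 27.3 (-1.97 ± 0.26) and Cd14 was at -1.91 ± 0.11. Tlr2 (-1.30 ± 0.12) was lower, and so was Tlr13 (-1.01 ± 0.17), just past the threshold. Tlr13 lost its call under 6 alternatives, among them leaving out replicate 2 (-0.97) or replicate 3 (-0.92). It also lost it with DESeq2 (-0.98), with library totals (-0.91) and at a clustering resolution of 0.5 (-0.92). Tlr7 rested on 1 UMI in dendritic-cell-like cells, and its pooled level in monocyte/macrophage-like cells was 40.3 times higher (95% exact interval 7.22 to 1593, counting error only). Tlr3 (9.83, 7.31 and 7.42 CPM against 5.12, 3.93 and 4.46) and Myd88 (87.4, 73.1 and 66.8 against 54.8, 55.9 and 50.6) were higher in all 3 libraries without a call, at 0.77 ± 0.38 (adjusted p = 0.149) and 0.39 ± 0.13 (adjusted p = 0.0207). With every cell thinned to 1000 UMIs, Tlr4 (-3.08), Cd14 (-1.95) and Tlr2 (-1.24) were called, and Tlr7 (-7.53 ± 2.95, adjusted p = 0.0785), Ly96 (-2.25 ± 0.85, adjusted p = 0.0664) and Tlr13 (-1.30 ± 0.47, adjusted p = 0.0507) missed the p threshold at folds no smaller than before. After that thinning Myd88 had the opposite sign, at -1.01 ± 0.44 (adjusted p = 0.131), and Tlr3 had too few UMIs to be tested. All 8 monocyte/macrophage markers were detected in dendritic-cell-like cells, at 874 to 1100 CPM in sum.

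In the lists, LPS response genes were lower for 7 of 15 and higher for 1, Cd40 (1.26 ± 0.14), a co-stimulatory receptor gene, with Nos2 lowest (-2.99 ± 0.38). The inhibitor gene Sigirr was higher (3.01 ± 0.40) together with 1 more of 12, and Irak3 was the 1 lower (-1.51 ± 0.29). Chaperone and protease genes were lower for 3 of 9, led by Ctsl (-2.63 ± 0.12), LPS transfer genes for 3 of 8, led by Cd36 (-2.16 ± 0.28), and adaptors for 1 of 20, Ikbke (-2.44 ± 0.28). Other receptor genes were lower for 2 of 4, among them Tlr6 (-1.34 ± 0.34), and higher for 1. Of 12 proposed ligands 3 were lower, led by Vcan (-1.98 ± 0.14), and none higher.

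Osteoclast-like cells, the bone-resorbing relatives of macrophages, were lower in most members. Of 9 members tested, 7 were called lower and none higher, where 18.6% of 13002 genes were called lower and 12.3% higher, with medians of -2.43 (members) and -0.05 (all genes). Tlr13 (6.38, 5.29 and 8.21 CPM against 51.6, 51.4 and 49.7; -2.97 ± 0.19, adjusted p = 1.29e-19) and Tlr2 (21.7, 14.4 and 34.3 against 151, 125 and 176; -2.72 ± 0.13, adjusted p = 2.20e-24) stood out, and both were at the free RNA limit in osteoclast-like cells. Tlr1 (-2.81 ± 0.29), Tlr7 (-2.70 ± 0.33), Cd14 (-2.43 ± 0.10) and Tlr4 (-2.19 ± 0.19) were also lower, and Cd14 too was at the free RNA limit there (0.979 times). Tlr3 (-1.21 ± 0.43) lost its call without replicate 1 (-0.79), with DESeq2 (-1.17) and with free RNA subtracted (-1.99). Ly96 had 17.4, 11.5 and 11.2 CPM against 29.1, 26.0 and 27.3 (-0.99 ± 0.17, adjusted p = 1.99e-06), just short of the fold set for a call, and was called under 8 alternatives (-1.01 to -1.42). Myd88 was at -0.51 ± 0.13 (adjusted p = 4.04e-04). With every cell thinned to 1000 UMIs, Tlr1 (-2.55 ± 1.14, adjusted p = 0.0936) and Tlr7 (-2.01 ± 1.20, adjusted p = 0.230) missed the p threshold. After that thinning Tlr2, Tlr13, Cd14 and Tlr4 kept their calls, and Myd88 was called (-1.47 ± 0.48, adjusted p = 0.0196). Ly96 was not called (-1.21 ± 0.71, adjusted p = 0.219), and Tlr3 had too few UMIs to be tested. Osteoclast-like cells carried all 8 monocyte/macrophage markers at 1579 to 1951 CPM in sum and had a median of 15705 UMIs.

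Of the lists, LPS response genes were lower for 11 of 15, led by the chemokine gene Cxcl10 (-3.23 ± 0.15), and higher for none. All 3 other receptor genes tested were lower, among them Tlr6 (-2.01 ± 0.30). Chaperone and protease genes were lower for 6 of 9 (Ctss, -2.70 ± 0.09), LPS transfer genes for 4 of 8 (Ly86, -4.45 ± 0.15), adaptors and kinases for 8 of 20 (Ticam2, -3.82 ± 0.46) and inhibitors for 4 of 12 (Irak3, -1.83 ± 0.22), and none of these 4 lists had a gene higher. Proposed ligands had 3 of 12 higher, led by the heat shock protein gene Hspd1 (2.91 ± 0.09), and 3 lower, led by Vcan (-2.33 ± 0.13).

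**Figure D4:**
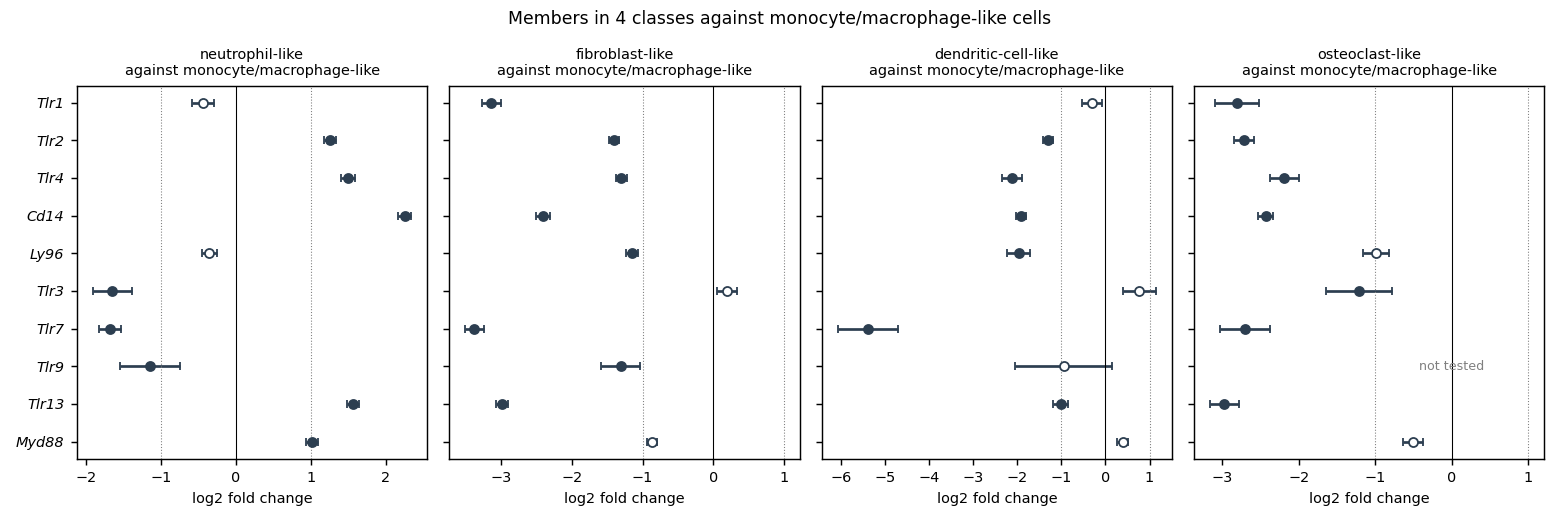
Log2 fold change (horizontal axis) of the 10 members (vertical axis) in neutrophil-like, fibroblast-like, dendritic-cell-like and osteoclast-like cells against monocyte/macrophage-like cells, from sums of 3 libraries. Points are edgeR estimates, bars are 1 standard error, filled points were called and dotted lines mark a log2 fold change of 1 in either direction. Cd14 is at 2.25 in neutrophil-like cells and at -2.41, -1.91 and -2.43 in the other 3 classes, which share the monocyte/macrophage-like sums as their reference. The point of Tlr7 in dendritic-cell-like cells rests on 1 UMI there.

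Between the stromal classes, endothelial-like cells had more Tlr3 and less Tlr2 than fibroblast-like cells. Of 9 members tested, 1 was called higher and 1 lower, where 12.5% of 14527 genes were called higher and 15.8% lower, with medians of 0.06 and 0.01. Tlr3 had 15.1, 13.8 and 14.7 CPM against 4.79, 5.20 and 4.69 (1.33 ± 0.12, adjusted p = 5.14e-07), with every endothelial-like library above every fibroblast-like one, as for 43.7% of the genes tested. Tlr2 had 30.5, 25.5 and 34.5 CPM against 55.0, 46.9 and 58.0 (-1.06 ± 0.07, adjusted p = 3.21e-08), a call that ended with library totals (-0.83) and with doublets kept (-0.82). With every cell thinned to 1000 UMIs, Tlr3 had too few UMIs to be tested, as had Tlr1 and Tlr7, and Tlr2 was at -0.81 ± 0.23 (adjusted p = 0.00184), short of the fold for a call. With library totals the median of all genes moved from 0.01 to 0.24, and the calls from 1817 higher and 2297 lower to 2337 and 1957. Ly96 (23.7, 19.8 and 19.0 CPM against 12.9, 10.1 and 12.2; 0.60 ± 0.10, adjusted p = 1.84e-04), Cd14 (0.50 ± 0.07, adjusted p = 3.01e-05) and Tlr4 (0.26 ± 0.09, adjusted p = 0.0235) were higher by less than the fold set for a call. Tlr1, Tlr7, Tlr13 and Myd88 were at 0.06, 0.03, -0.08 and 0.04. The 8 neutrophil markers summed to 2241 to 5426 CPM in endothelial-like and 2113 to 4947 in fibroblast-like cells, the 8 monocyte/macrophage markers to 332 to 673 and 340 to 518 CPM, and all were detected in both.

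For the surrounding genes, the shares over all genes tested were 12.5% called higher and 15.8% called lower, and most lists had few calls. Cd36, a scavenger receptor that serves TLR2, was higher in endothelial-like cells (5.61 ± 0.08) as 1 of 2 in 8 LPS transfer genes, and Lbp was the 1 lower (-2.96 ± 0.10). The inhibitor gene Sigirr was the 1 higher of 12 (4.87 ± 0.12), and Il1rl1 led 3 lower (-3.56 ± 0.12). LPS response genes had 1 of 15 higher, Cd40 (2.33 ± 0.18), and 4 lower, led by Cxcl1 (-3.48 ± 0.07). Proposed ligands were lower for 8 of 12, led by Saa3 (-4.35 ± 0.09), and higher for none. Of 9 chaperone genes 1 was lower, Hsp90b1 (-1.29 ± 0.06), which encodes the folding chaperone of most Toll-like receptors, and of 20 adaptors and kinases 1, Ikbke (-1.96 ± 0.14). Of the 2 other receptor genes tested 1 was lower.

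Infiltrating-monocyte-like cells (marked by Ly6c2, Ccr2, Plac8, Vcan and F13a1) had more Myd88 and less Tlr7 than resident-macrophage-like cells (Vsig4, Folr2, Cd163, Timd4 and Cbr2). Of 8 members tested, 1 was called higher and 1 lower, where 10.1% of 8079 genes were called higher and 12.0% lower, with medians of -0.33 (members) and 0.00 (all genes). Myd88 had 93.8, 79.4 and 81.7 CPM against 30.7, 33.0 and 33.9 (1.30 ± 0.20, adjusted p = 9.20e-09). Tlr7 had 11.0, 11.9 and 20.2 CPM against 30.7, 42.8 and 33.9 (-1.50 ± 0.28, adjusted p = 1.15e-06). Cd14 was higher in all 3 libraries (219.9, 241 and 359.7 CPM against 117, 126 and 153) just short of the fold for a call (0.93 ± 0.14, adjusted p = 6.79e-09). Tlr13 (-0.79 ± 0.17, adjusted p = 4.65e-05), Ly96 (-0.64 ± 0.24, adjusted p = 0.0200) and Tlr4 (-0.55 ± 0.21, adjusted p = 0.0239) were lower by less than that fold, and Tlr2 was at 0.31 ± 0.15 (adjusted p = 0.0868). Tlr3, too rare to be tested, had 2.97, 0.873 and 3.23 CPM against 11.2, 8.55 and 6.78. With every cell thinned to 1000 UMIs, Tlr7 had too few UMIs to be tested, Myd88 was at 1.11 ± 0.54 (adjusted p = 0.101) and Cd14 at 0.97 ± 0.31 (adjusted p = 0.00782), neither of them called, and with clustering at a resolution of 0.5 or 2.0 there were 4 calls, Cd14 (1.58 and 1.23) among them. The resident class held 57, 66 and 70 cells. The leading genes of the infiltrating class included the progenitor genes Prtn3, Elane and Mpo, and the 5 progenitor markers summed to 195 to 991 CPM in it, against 5.08 to 30.5 in the resident class, where Ctsg, Elane, Mpo and Ms4a3 were at 0 in at least 1 library. The 8 neutrophil markers summed to 6954, 9283 and 5084 CPM in the infiltrating class against 3530, 6046 and 2436 in the resident class. Free RNA with the make-up of the library could bring at most 36.54, 29.15 and 55.25% of the UMIs of the infiltrating class. For the resident class it could bring at most 17.62, 18.63 and 26.71%. The part of all these in the result was not tested.

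Among the lists, chaperones and proteases were lower in the infiltrating class for 5 of 9, led by Ctsb (-3.01 ± 0.15), and higher for none. Adaptors and kinases were higher for 3 of 18, led by Irak2 (1.36 ± 0.20), and inhibitors for 2 of 10, led by Socs1 (1.44 ± 0.30), with none lower in either. LPS response genes were higher for 5 of 12, led by the inflammasome gene Nlrp3 (1.82 ± 0.21), and lower for 2, led by the chemokine gene Ccl5 (-3.59 ± 0.18). Of 8 LPS transfer genes Scarb1 was higher (1.04 ± 0.22) and Cd36 lower (-3.33 ± 0.24), and of 2 other receptor genes Tlr8 was lower (-1.52 ± 0.37). Of 12 proposed ligands 2 were higher, led by Vcan (3.55 ± 0.18), which is also one of the markers of this class.

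Lining-fibroblast-like and sublining-fibroblast-like cells did not differ in any member by the rule for a call. None of 8 members tested was called, where 4.67% of 11788 genes were called higher and 7.22% lower, with medians of 0.11 and -0.01. Tlr2, Ly96 and Tlr4 were higher in every lining library than in every sublining one, as were 29.5% of the genes tested. Tlr2 had 77.4, 71.2 and 80.8 CPM against 50.3, 23.8 and 49.5 (0.78 ± 0.15, adjusted p = 0.00127). Ly96 had 18.2, 13.5 and 12.0 CPM against 7.74, 9.10 and 9.74 (0.49 ± 0.22, adjusted p = 0.103), and Tlr4 had 24.2, 20.4 and 20.7 against 19.9, 18.2 and 14.8 (0.17 ± 0.15, adjusted p = 0.442). With free RNA subtracted, Tlr2 was at 1.28 and was called. With library totals no member was called, while the median of all genes moved from -0.01 to 0.14 and the calls from 551 higher and 851 lower to 747 and 722. The 8 neutrophil markers summed to 1797 to 4777 CPM in lining and 2165 to 5378 CPM in sublining cells.

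Of the lists, LPS response genes were higher in the lining class for 5 of 14, led by Il6 at 62.7, 68.6 and 35.0 CPM against 6.63, 3.85 and 2.23 (3.65 ± 0.20, adjusted p = 3.90e-09), and lower for none. Il1rl1 was the 1 inhibitor gene of 11 called (2.44 ± 0.18), and Lbp the 1 LPS transfer gene of 8 (-1.47 ± 0.20). Proposed ligands had 2 of 12 higher, led by the matrix glycoprotein gene Tnc (1.86 ± 0.15), and 3 lower, led by Vcan (-1.66 ± 0.07). No chaperone, adaptor or other receptor gene was called.

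Mature neutrophil-like cells had more Tlr4, Cd14 and Tlr2 RNA than immature neutrophil-like cells (marked by Camp, Ltf, Ngp and other granule genes). Of 8 members tested, 3 were called higher and none lower, where 6.90% of 10825 genes were called higher and 5.82% lower, with medians of 0.77 (members) and -0.03 (all genes). Tlr4 had 105, 102 and 129.5 CPM against 42.6, 30.5 and 47.4 (1.22 ± 0.17, adjusted p = 1.13e-07). Cd14 had 1255, 1388 and 1792 CPM against 605, 404.5 and 654.5 (1.13 ± 0.15, adjusted p = 3.59e-08), and Tlr2 had 299, 287 and 351 against 126.5, 99.2 and 152 (1.04 ± 0.15, adjusted p = 2.27e-07). Every mature library lay above every immature one for all 3, as for 35.9% of the genes tested. Tlr1 (0.92 ± 0.31, adjusted p = 0.0186) and Tlr13 (0.62 ± 0.17, adjusted p = 0.00273) were also higher without overlap and without a call. Myd88 did not overlap either but was at 0.26 ± 0.16 (adjusted p = 0.247). Ly96 had 15.8, 14.9 and 20.1 CPM against 19.2, 13.9 and 3.79, with overlap (-0.13 ± 0.25, adjusted p = 0.762). Replicate 2 gave 681 of the 1108 immature cells. Without that replicate, Tlr2 (0.90) and Cd14 (0.92) lost their calls and 1 member, Tlr4, was called. Tlr2 and Cd14 also lost them at a clustering resolution of 0.5 (0.90 and 0.97) and with doublets kept (0.81 and 0.98). At a resolution of 2.0 Tlr2 (0.98) was not called. With library totals the median of all genes moved from -0.03 to 0.28, the calls from 747 higher and 630 lower to 1394 and 384, and Tlr1 (1.23) was called as well.

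In the lists, LPS response genes were higher in mature cells for 9 of 15, led by Cxcl10 (2.98 ± 0.20), adaptors and kinases for 3 of 20, led by Irak2 (1.77 ± 0.16), and inhibitors for 3 of 11, led by Tnfaip3 (1.72 ± 0.17), with none lower. Tlr6 was the 1 of 3 other receptor genes called, at 53.5, 48.7 and 51.9 CPM against 24.6, 14.2 and 13.3 (1.24 ± 0.20, adjusted p = 3.18e-06). Of 12 proposed ligands 2 were lower, led by S100a8 (-1.49 ± 0.15), and none higher. Of 8 LPS transfer genes 1 was lower, and of 9 chaperone genes none was called.

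**Figure D5:**
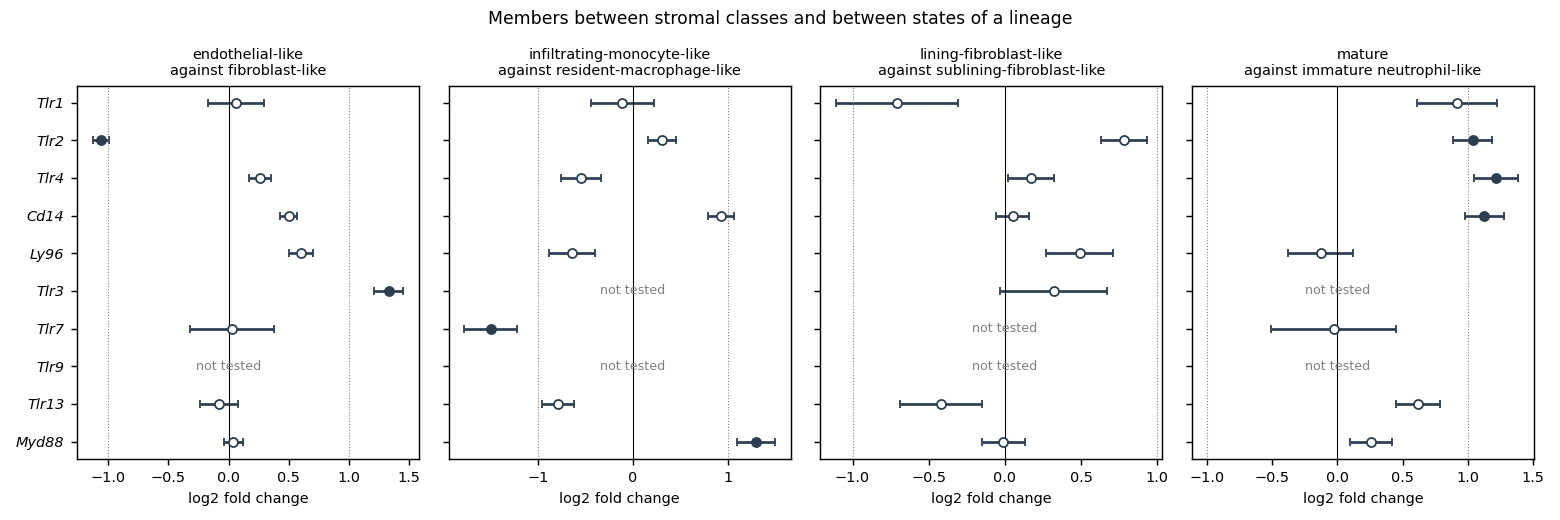
Log2 fold change (horizontal axis) of the members (vertical axis) between endothelial-like and fibroblast-like cells and between states of monocytes and macrophages, of fibroblasts and of neutrophils, from sums of 3 libraries. Points are edgeR estimates, bars are 1 standard error, filled points were called, and genes with too few UMIs are marked as not tested. Tlr3 (1.33) and Tlr2 (-1.06) are called in the first panel, Myd88 (1.30) and Tlr7 (-1.50) in the second, none in the third and Tlr2, Tlr4 and Cd14 in the fourth.

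The share of cells with at least 1 UMI depends on depth, and the classes differ in it. Unthinned, 39.9 ± 1.09% of neutrophil-like and 51.1 ± 4.16% of monocyte/macrophage-like cells had a Tlr2 UMI, an order opposite to that of the CPM values. With every cell thinned to 1000 UMIs, which left out no cell since none had fewer, the shares were 23.4 ± 2.44% and 13.2 ± 1.49% (SD, n = 3), against 2.95 ± 0.404% in T cell-like cells (11.5 ± 1.50% unthinned). Cd14 was found in 56.6 ± 6.04% of thinned neutrophil-like cells (71.2 ± 2.63% unthinned), 23.6 ± 4.90% of thinned monocyte/macrophage-like cells (66.0 ± 4.36%) and 5.60 ± 1.72% of thinned T cell-like cells (23.9 ± 0.540%). Fibroblast-like cells, at 6.21 ± 0.589% for Cd14 (49.0 ± 2.49% unthinned), were at the T cell level. For Tlr4 the thinned shares were 9.15 ± 1.76% in neutrophil-like, 4.51 ± 0.760% in monocyte/macrophage-like, 2.49 ± 0.251% in endothelial-like and 1.14 ± 0.557% in T cell-like cells (17.7 ± 0.490%, 24.6 ± 3.01%, 27.7 ± 1.19% and 5.34 ± 1.01% unthinned). For Tlr3 the thinned share was 1.35 ± 0.894% in endothelial-like, 1.96 ± 1.70% in resident macrophage-like and 0.120 ± 0.208% in T cell-like cells (17.9 ± 2.51%, 10.1 ± 4.18% and 0.438 ± 0.244% unthinned). Median UMIs per cell were 1833 in neutrophil-like, 6283.5 in monocyte/macrophage-like, 11576 in fibroblast-like, 10757.5 in endothelial-like and 3830 in T cell-like cells.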

How the data were processed

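Synovial cells of 3 libraries were profiled with the DNBelab C droplet system. The authors deposited whole-number UMI counts per gene and cell, and per the submitters' processing notes the builds were GRCm39 and mm39 and the tools included R 3.6 and Seurat 3.0.2. The aligner is not given in the sources used here. Members and lists were chosen with earlier results of these data known.

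Cells with under 200 genes or over 20% mitochondrial counts were removed (20, 41 and 21), as were 489, 457 and 901 cells with a Scrublet doublet score above 0.2 at an assumed rate of 0.06, since the automatic threshold marked 410, 0 and 1266. The rest were clustered with scanpy 1.11.5 and leidenalg 0.10.2 on 2000 variable genes, 30 principal components and a resolution of 1.0, leaving out members and listed genes. Counts were summed per library and class and tested by the quasi-likelihood method of edgeR (version 4.0.16, R 4.3.3) after its expression filter and trimmed-mean (TMM) scaling, with the library as a block. The 2 classes of a library come from the same pooled mice, which is where the pairing comes from. Standard errors are the fold divided by the root of F. The 10 members are named in every comparison, with 1 leading gene per list and direction and 3 genes of nearest pattern per member. Library totals lie between 99782608 and 116125707 UMIs. Intervals and floors (3 UMIs) cover counting error only. The model was tested on simulated data. Alternatives were DESeq2 1.42.0, library totals, no low-count filter, no block, each replicate left out, thinning, free RNA subtraction, other resolutions, doublets kept and gates on marker UMIs. A gate on excess marker UMIs, and levels in the interferon-high and Spp1 Arg1 states from clusters led by their markers alone, were added after seeing the data.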

Additional observations from a re-analysis of the deposited data

How the results depend on the processing

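Over the 8 comparisons, 924 values of members under an alternative were computed: 860 stayed on their side of the threshold, 41 lost a call, 21 gained one and 2 reversed with a call. The 860 include values that changed sign without a call on either side. After thinning, these were among others Tlr1 in neutrophil-like cells (0.07 in place of -0.44) and Myd88 in dendritic-cell-like cells (-1.01 in place of 0.39). The 2 were Tlr1 (-1.35) and Tlr7 (-1.71) in endothelial-like against fibroblast-like cells under the gate on raw marker UMIs. Without the replicate block 71 of 72 values stayed on their side, and Tlr9 in neutrophil-like cells lost its call (-1.05). The number of members called moved by more than 1.5 times as follows, and the cause was not tested. For neutrophil-like cells it was 5 in place of 8 under the raw gate, and for dendritic-cell-like cells 3 in place of 6 after thinning, where Tlr7 (-7.53), Ly96 (-2.25) and Tlr13 (-1.30) kept their direction and missed the p threshold. For endothelial-like cells it was 1 in place of 2 with library totals or with doublets kept, 0 after thinning, where Tlr3 was not tested, and 5 under the raw gate. For infiltrating-monocyte-like cells it was 4 in place of 2 without the low-count filter and at resolutions 0.5 and 2.0, and 0 after thinning, where Tlr7 was not tested. For lining-fibroblast-like cells it was 1 in place of 0 with free RNA subtracted. For mature neutrophil-like cells it was 1 in place of 3 at resolution 0.5 and with doublets kept, and 1 to 4 with a replicate left out. The highest class was the same as in the report for 4 of 10 members with doublets kept, 7 at resolution 2.0, after thinning or without replicate 3, and 9 at resolution 0.5, with free RNA subtracted or without replicate 1 or 2. After thinning it moved for Tlr3 (to resident macrophage-like), Tlr1 (B cell-like) and Tlr9 (erythroid-like). With doublets kept, Tlr2, Tlr4, Cd14 and Myd88 were highest in Ccl3 Ccl4 neutrophil-like, Tlr13 in interferon-high neutrophil-like and Ly96 in Spp1 Arg1 macrophage-like cells. Thinning, which leaves fewer genes to test, lowered the genes called from 1561 to 843 (dendritic-cell-like), from 4016 to 2110 (osteoclast-like), from 4114 to 2509 (endothelial-like), from 1786 to 605 (infiltrating-monocyte-like) and from 1402 to 488 (lining-fibroblast-like). Gates were not run for the 3 comparisons of states, nor the raw gate for dendritic-cell-like cells. Depth limits Tlr9, Tlr3 in neutrophils and every member in B cell-like cells.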
